A study of Mus musculus with 16 samples.

Results

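T cell receptor gene segments were followed across 4 culture conditions of mouse spleen T cells. They were taken as every main row of the gene array (a row is 1 probe set) whose gene symbol begins with Trav, Traj, Trac, Trbv, Trbj, Trbc, Trdv, Trdc, Trgv, Trgc, Tcra, Tcrb, Tcrd or Tcrg. Only rows whose gene description names a T cell receptor were kept. This gave 210 of 33793 main rows, under 178 symbols. The rule used no measured value, but it was set with earlier results of these data known. The rows held 157 alpha chain rows (99 variable V, 57 joining J and 1 constant C), 39 beta chain rows (23 V, 14 J and 2 C), 10 gamma chain rows (7 V and 3 C) and 4 delta chain rows, all V.

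A T cell builds each chain of its receptor by joining 1 V segment to a J segment, with a D segment between them in beta and delta chains, and the joined exon is spliced to the constant region. Most T cells in the spleen, including all conventional CD4 helper cells, carry an alpha and a beta chain, and a smaller lineage carries a gamma and a delta chain. The constant region is therefore present in nearly every transcript of a locus, while any single V or J segment is used by a fraction of the cells. Delta segments lie inside the alpha locus, and some Trav segments can be joined to either chain.

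The cells were labelled as CD4 T cells from spleens of male C54BL/6 mice aged 8 weeks (strain as spelled in the labels), kept in culture for 3 days. The groups were Th17 conditions with 20 µM ezetimibe (Eze), Th17 conditions with 20 µM rosuvastatin (Rsv), Th17 conditions without drug (Th17) and Th0, each with 4 arrays. Ezetimibe blocks sterol uptake and rosuvastatin, a statin, blocks sterol synthesis. The study's methods describe Th17 conditions as stimulation through CD3 and CD28 with TGF-β, IL-6 and antibodies to interferon-γ and IL-4. Its text speaks of cultured splenocytes and of naïve T cells for Th0. Ezetimibe is given for 3 days in the methods, while the results text gives a shorter drug treatment for the cells of the RNA analysis. For its in vitro flow cytometry the methods name BALB/c mice as the source of spleen cells, another strain than in the labels. Which strain the array samples came from was not settled. The sources used here do not say whether the arrays of a group came from separate mice or cultures. The p-values therefore reflect array-to-array spread alone, which may be technical.

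Values are the deposited log2 signals, and a fold change is a difference of group means on that scale. A row was called when its limma p-value was under 0.05 after Benjamini-Hochberg adjustment over the 33793 rows. Rows named for the largest differences were picked among called rows whose groups did not overlap. Their calls and lack of overlap in that comparison follow from the choice. The background threshold of an array, the 95th percentile of its 23 antigenomic control rows, ran between 6.34 and 7.16. Its group means were 6.56 in Eze, 6.51 in Rsv, 6.75 in Th17 and 7.04 in Th0. Of the segment rows, 89 averaged above the threshold in Eze, 112 in Rsv, 109 in Th17 and 65 in Th0, and 96 of the 210 did so in no group. Those 114 that did included 110 alpha or beta rows and 4 gamma rows, but no delta row.

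Many segments are near copies of each other, so several rows are not independent. The array annotation gave a crosshyb_type of 1 (probes unique) to 105 rows and of 3 (probes matching several places) to the other 105. There were 26 rows with values identical to another row, which left 197 distinct rows. All 210 lay at a segment of RefSeq on GRCm38.p6, 158 of them with the same start or end, although the files name no build. At 7 rows the symbol named another kind of segment than the position, among them a row called Tcrb-J that lies at Trbc1 and is treated here as a constant row.

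The alpha and beta constant regions were among the brightest rows on every array, and both chains were lower with ezetimibe. Trac, the only alpha constant region (chromosome 14, 54220521 to 54223097, plus strand), read 11.32, 11.38, 11.45 and 11.51 in Eze, 11.81, 11.80, 11.81 and 11.81 in Rsv, 11.81, 11.82, 11.82 and 11.80 in Th17, and 11.34, 11.36, 11.40 and 11.34 in Th0. The Eze and Th0 arrays were all below the Rsv and Th17 arrays, and the Rsv and Th17 arrays overlapped each other. The row stood between the 99.7th and 99.9th percentile of all main rows on every array, and its spread was small (SD 0.08, 0.01, 0.01 and 0.03 in Eze, Rsv, Th17 and Th0, n = 4 each). Trac was 0.45 higher in Th17 than in Th0 (SE 0.07, limma adjusted p = 6.91e-05), 0.40 lower in Eze than in Th17 (1.32-fold, adjusted p = 0.000176), and differed by -0.01 in Rsv minus Th17 (adjusted p = 0.954).

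The beta constant regions were also lower with ezetimibe, and their other calls were close to the threshold. Trbc2 (chromosome 6, 41546730 to 41548181) read 10.99, 11.05, 11.03 and 10.99 in Eze, 11.62, 11.61, 11.66 and 11.56 in Rsv, 11.41, 11.46, 11.46 and 11.28 in Th17, and 11.15, 11.24, 11.24 and 11.10 in Th0. No array of 1 group overlapped another group. Trbc2 fell by 0.39 in Eze against Th17 (adjusted p = 0.000493), and was 0.21 higher in Rsv than in Th17 (adjusted p = 0.0342) and 0.22 higher in Th17 than in Th0 (adjusted p = 0.048). The row at Trbc1 (chromosome 6, 41538218 to 41539347) averaged 11.65 in Eze, 12.07 in Rsv, 11.94 in Th17 and 11.70 in Th0. It was called lower in Eze than in Th17 (-0.29, adjusted p = 0.0082) and higher in Th17 than in Th0 (0.24, adjusted p = 0.0381), and gave 0.13 in Rsv minus Th17 (adjusted p = 0.239). In Th17 against Th0, both beta calls were lost when any 1 of the Th0 arrays or of Th17 replicates 1, 2 and 3 was left out (limma adjusted p between 0.0583 and 0.128 for Trbc2, and between 0.057 and 0.101 for the row at Trbc1). In Rsv against Th17, the call of Trbc2 was lost without Rsv replicate 1, 2 or 3 or Th17 replicate 1 or 4 (adjusted p between 0.0614 and 0.112). With arrays centred on their medians, Trbc2 gave 0.12 in Rsv minus Th17 (adjusted p = 0.318) and the row at Trbc1 gave -0.21 in Eze minus Th17 (adjusted p = 0.0712).

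**Figure D1:**
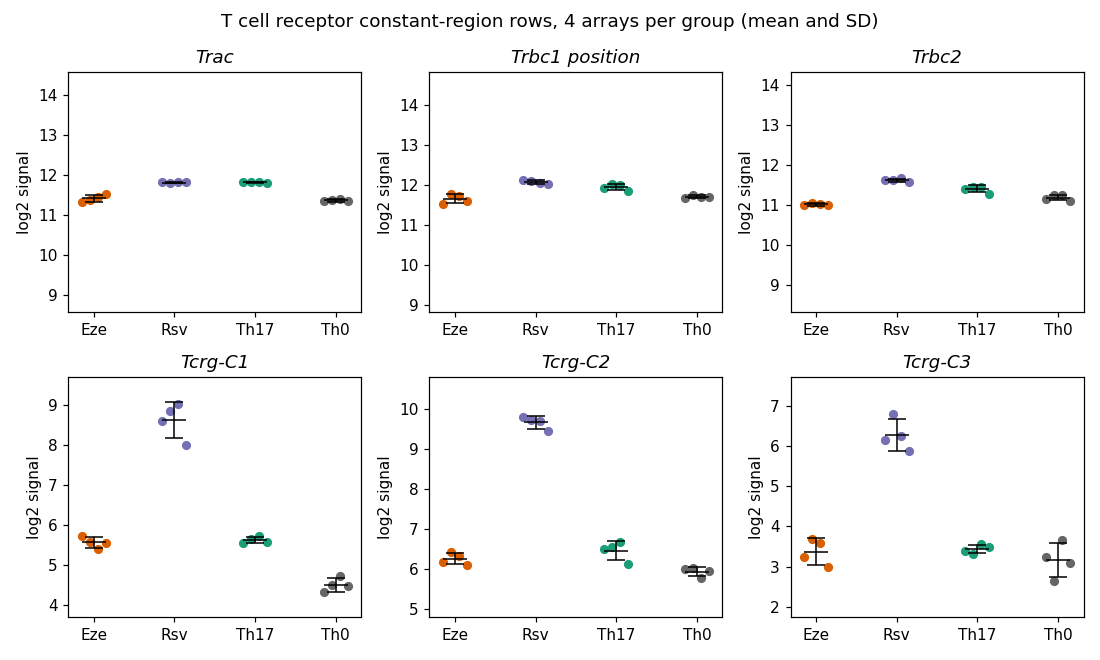
Log2 signal of the 6 constant-region rows in Eze, Rsv, Th17 and Th0 (points, 1 per array; black bars, mean and SD of 4 arrays), with 6 log2 units on every vertical axis. Trac and the beta rows stay between 10.99 and 12.12, lower in Eze than in Th17, while Tcrg-C1, Tcrg-C2 and Tcrg-C3 lie highest in all 4 Rsv arrays.

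Under Th17 conditions the alpha and beta segments were higher as a group than in Th0. Of 196 alpha and beta rows, 142 were called higher and 0 lower, with a median log2 fold change of 0.54. Over all main rows 8.22% were called higher and 6.94% lower, and the median was -0.03. At unadjusted p under 0.05 by the exact Mann-Whitney test, the count of lower rows among all 210 was 0 as well. Arrays of the groups did not overlap for 135 of these rows, all of them higher in Th17, where 9.91% of all main rows did so in that direction and 9.36% in the other. The names of the arrays without a number in their title share 1 date over the groups, and those of the numbered arrays another; no source says what the dates stand for. Between the single arrays without a number the alpha and beta median was 0.59, and in the 3 numbered arrays of each group it was 0.51.

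Joining segments of the alpha chain showed the greatest median of the V and J classes in this comparison. Of 57 Traj rows, 47 were higher in Th17, with a median of 0.74, against 67 of 99 Trav rows with a median of 0.49, 15 of 23 Trbv rows with 0.49 and 10 of 14 Trbj rows with 0.37. Traj27, at 9 probes with no cross-match noted, read 8.22, 8.29, 8.35 and 8.07 in Th17 and 7.25, 7.15, 7.36 and 7.09 in Th0. Th17 was above Th0 by 1.02 on average (SE 0.14, 2.03-fold, adjusted p = 3.87e-05). Of the 10 Traj rows that were not called, 9 averaged below the background threshold in both groups. The exception was Traj5, with means of 7.22 in Th17 and 6.72 in Th0.

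Several of the segments with the largest differences could be given only as bounds, since Th0 did not rise above background. Traj56 read 7.09, 7.18, 7.08 and 7.53 in Th17 and 6.13, 5.85, 6.18 and 6.18 in Th0, where every array was under its threshold. Measured against that threshold it was at least 1.13-fold higher in Th17 (adjusted p = 4.73e-06), and Traj42 and Trav13d-4 were at least 1.1-fold and 1.17-fold higher by the same measure. Traj36 had means of 7.84 and 6.83, a difference of 1.01 (adjusted p = 3.62e-06), and Traj53 had means of 6.80 and 5.77 (adjusted p = 6.72e-05), with 1 Th17 array above background. Among the 96 alpha and beta rows whose mean over all 16 arrays was above background, 83 were higher in Th17 with a median of 0.56, and among the 100 dimmer rows 59 were higher with a median of 0.48.

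With ezetimibe the alpha and beta segments were lower across the loci. Of 196 rows, 151 were called lower and 0 higher in Eze than in Th17, with a median of -0.57, where 10.8% of all main rows were called lower, 10.7% higher, and the median was -0.05. At unadjusted p under 0.05 by the exact Mann-Whitney test, 0 of the 210 rows were higher as well. Not overlapping were 150 of these rows, all lower in Eze, where 13.4% of all rows were lower and not overlapping. The median was -0.64 between the single unnumbered arrays and -0.55 in the numbered ones. Of the same 96 brighter rows, 91 were lower with a median of -0.64, and of the 100 dimmer rows 60 were lower with a median of -0.49. In bulk RNA, fewer cells that use a segment and less RNA of it per cell cannot be told apart.

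V and J segments of both chains took part. Lower in Eze were 71 of 99 Trav rows (median -0.50), 47 of 57 Traj rows (-0.69), 16 of 23 Trbv rows (-0.56) and all 14 Trbj rows, whose differences ran between -0.94 and -0.35. Trbv20 (chromosome 6, 41188273 to 41188977) read 8.00, 8.15, 7.98 and 7.77 in Eze and 8.94, 8.97, 9.0 and 8.96 in Th17. Eze was 1.99-fold lower (-0.99, SE 0.09, adjusted p = 1.32e-07). Traj38 read 8.05, 8.23, 8.17 and 8.07 in Eze and 9.11, 9.07, 9.07 and 8.97 in Th17, which is 1.9-fold lower (adjusted p = 3.59e-07).

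Further named alpha and beta rows were also lower with ezetimibe. Traj27 fell by 1.06 and Traj11, at 22 probes, by 0.87 (adjusted p = 1.82e-05 and 6.61e-07). Traj34 differed by -0.88 (adjusted p = 0.000545). Trbj1-7, which averaged 6.49 in Eze and 7.43 in Th17, fell by 0.94 (adjusted p = 4.67e-05). Trbj1-1, the brightest J row, averaged 10.57 in Eze and 11.03 in Th17 and fell by 0.47 (adjusted p = 0.00065). Constant rows fell by less than the V and J medians, at -0.40 for Trac and -0.39 and -0.29 for the beta rows, although no test of that difference was run. These constant rows stood between the 99.6th and 99.9th percentile of main rows on every array. The part of this high signal in their smaller differences was not tested. Trbv19 (-0.26, adjusted p = 0.0566) and the row of Trav15d-1-dv6d-1 at Trav15n-1 (-0.17, adjusted p = 0.238) were not called. Nor were the named gamma rows Tcrg-C1, Tcrg-C2, Tcrg-V1 and Trgv2, with limma adjusted p-values of 0.878, 0.282, 0.276 and 0.51.

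**Figure D2:**
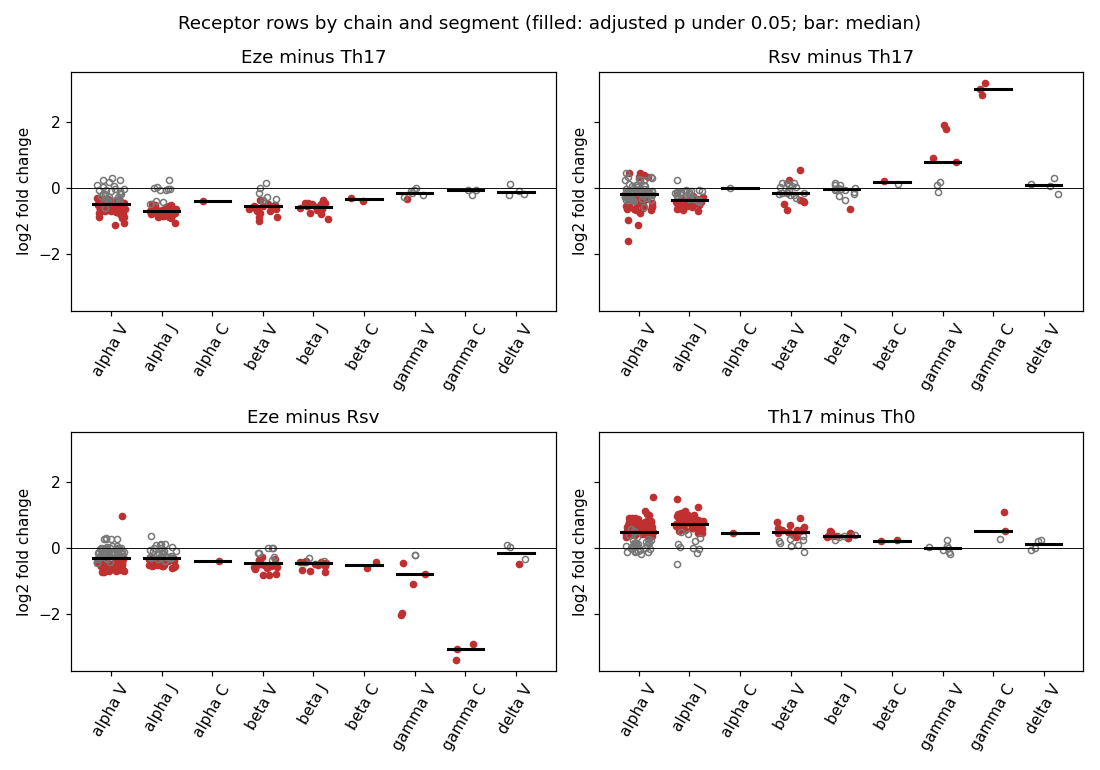
Log2 fold change of every receptor row by chain and segment kind in the 4 comparisons (points, 1 per row; filled, limma adjusted p under 0.05; bar, median of the class). Alpha and beta classes lie below 0 in Eze minus Th17 and above 0 in Th17 minus Th0, and the gamma C rows stand at 2.84 to 3.20 in Rsv minus Th17.

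Along the alpha locus, where the J cluster follows the V segments, the differences were larger towards the J end. Over all 144 distinct alpha rows, Spearman's correlation of position with the log2 fold change was 0.35 in Th17 minus Th0 and -0.40 in Eze minus Th17. Over the 86 distinct Trav rows alone it was 0.18 in Th17 minus Th0 and -0.18 in Eze minus Th17, and over 57 Traj rows it was 0.04 and -0.34. These are descriptions over rows that share the same arrays and in part the same probe sequences. Within the alpha classes, rows of higher mean signal had larger differences. Pearson's correlation of the mean level with the log2 fold change was 0.48 in Th17 minus Th0 and -0.73 in Eze minus Th17 over the Traj rows, and 0.36 and -0.47 over the Trav rows. Spearman's was 0.23 and -0.58 over the Traj rows, and 0.33 and -0.44 over the Trav rows. Over the 14 Trbj rows Pearson's ran the other way (-0.59 and 0.39), as did Spearman's (-0.52 and 0.33). Over all 39 beta rows Pearson's was -0.03 and -0.14, and Spearman's was -0.14 and 0.03. Signals of different probe sets are not on a common scale, which these correlations share.

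**Figure D3:**
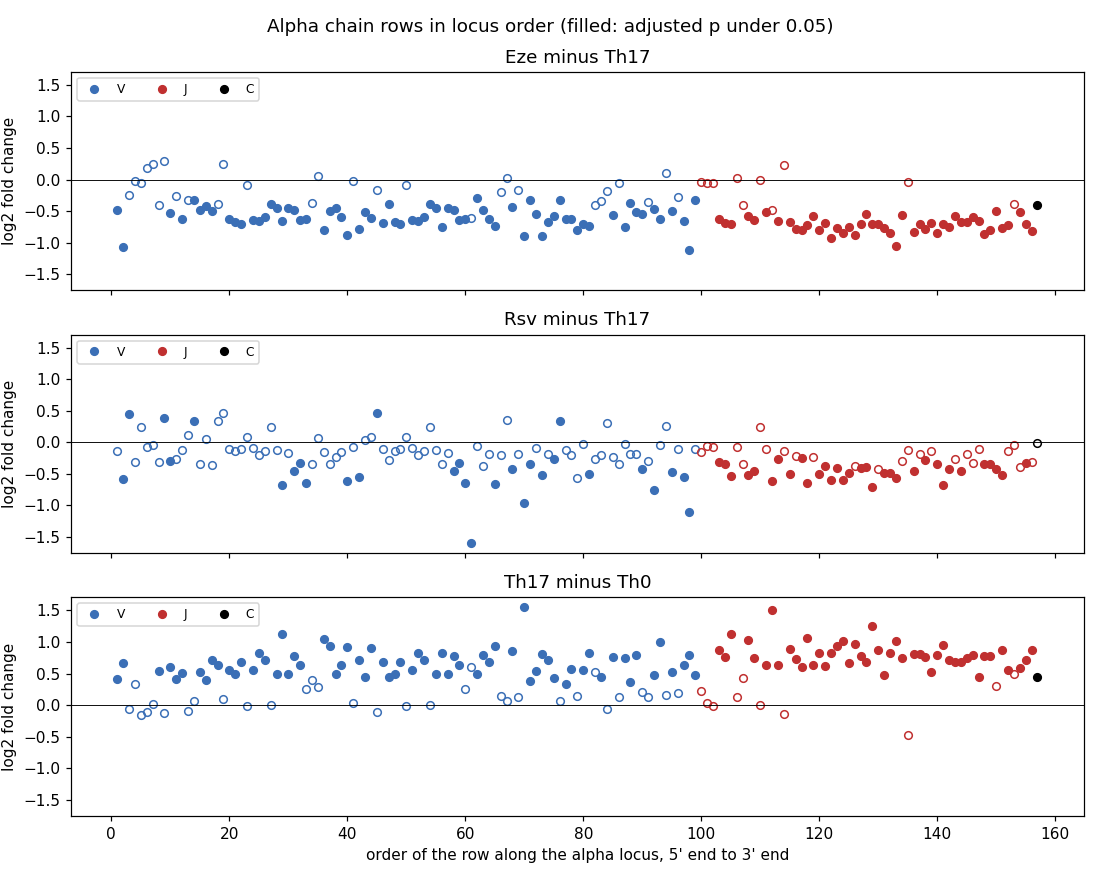
Log2 fold change of the 157 alpha chain rows in their order along the locus (horizontal axis, rank of the position; blue V, red J, black C; filled, adjusted p under 0.05), in Eze minus Th17, Rsv minus Th17 and Th17 minus Th0. Called V rows occur along the whole array of segments, and called J rows span the J cluster in all 3 panels.

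Genes embedded in these loci were read for comparison. The beta locus holds 15 main rows of trypsinogen-like and related genes, all below background in every group. None was called in Eze against Th17 with limma (median 0, range -0.21 to 0.16). Over all main rows 10.7% were called higher and 10.8% lower. In Th17 against Th0, 1 was called lower, where 6.94% of all main rows were. In Rsv against Th17, 2 were called higher (median 0.27), where 14% of all main rows were. Below background, these 15 rows cannot show whether expressed genes of the locus differed. The alpha and delta loci hold 6 such rows. The transcript B230359F08Rik, below background throughout (means 2.76 in Eze, 2.65 in Rsv, 3.16 in Th17 and 2.57 in Th0), was called in the same directions as the alpha segments, with adjusted p-values of 0.0225 in Eze against Th17, 0.00416 in Rsv against Th17 and 0.00212 in Th17 against Th0. Rps19-ps2, a ribosomal protein pseudogene on a pair of rows with equal values and the only one of these above background, averaged 9.52 in Eze, 8.89 in Rsv, 9.56 in Th17 and 9.88 in Th0. It was lower in Rsv than in Th17 (-0.67, adjusted p = 1.74e-06) and lower in Th17 than in Th0 (-0.32, adjusted p = 0.00482). The olfactory receptor rows Olfr1507, Olfr1508 and Olfr1509 were below background, with adjusted p-values of at least 0.516 in these 3 comparisons. These rows were chosen by position after the segment values had been seen.

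In Rsv the alpha and beta segments differed less from Th17 than in Eze, and mostly in the lower direction. Of 196 rows, 63 were lower and 8 were higher in Rsv than in Th17, with a median of -0.20, where 12.3% of all main rows were lower, 14% higher, and the median was 0.06. Not overlapping were 60 lower and 9 higher rows, where 12.2% and 13.5% of all rows did so. The alpha chain held most of the lower rows, with 57 of 157 called (median -0.25), including 33 of 57 Traj rows and 24 of 99 Trav rows. Of 39 beta rows 6 were lower and 3 higher, with a median of -0.06. The alpha and beta median was -0.39 between the single unnumbered arrays and -0.14 in the 3 numbered arrays of each group, and with the numbered arrays alone 37 rows were called lower in place of 63.

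Several named segments were lower with rosuvastatin, and most of them overlapped the Eze arrays. Traj38 read 8.36, 8.72, 8.45 and 8.32 in Rsv, all between the Eze and the Th17 arrays, and was 1.51-fold lower than in Th17 (-0.59, SE 0.09, adjusted p = 5.21e-05). Traj36 differed from Th17 by -0.59 (adjusted p = 0.0007) and Traj42 by -0.64 (adjusted p = 0.00272). Against Rsv, Eze was not called different for Traj36, Traj42 or Trbj1-7 (adjusted p = 0.101, 0.725 and 0.127). Trav7-2 read 7.75, 8.11, 7.90 and 7.42 in Rsv and 8.45, 8.34, 8.32 and 8.71 in Th17, a fall of 0.66 (adjusted p = 0.000771). Trbv26 and Trbj1-7 fell by 0.67 and 0.65 (adjusted p = 0.00139 and 0.00148). Traj34, Trbj1-1 and Trbv13-2 gave -0.37, -0.03 and 0.04, with adjusted p-values of 0.116, 0.835 and 0.85.

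The 8 alpha and beta rows that were higher in Rsv than in Th17 were V segments and a constant region. They were 4.08% of these rows, where 14% of all main rows were higher. Trbv19 (chromosome 6, 41178589 to 41179048; 19 probes, unique) read 8.94, 9.12, 9.03 and 8.90 in Rsv and 8.39, 8.38, 8.53 and 8.44 in Th17. Rsv was above Th17 by 0.56 on average (1.48-fold, SE 0.09, adjusted p = 0.000148). The row of Trav15d-1-dv6d-1, which lies at Trav15n-1 and belongs to a family that can join either the alpha or the delta chain, averaged 6.64 in Rsv and 6.17 in Th17 (adjusted p = 0.000874), but no Th17 array was above background, and no difference is given. The other rows were Trbc2, Trbv1 (0.25), Trav3-1 (0.45), Trav6d-4 (below background in all groups) and both identical rows of Trav11d (0.33), the last 5 named after their values were seen.

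In Rsv against Th17 gamma chain rows went the other way, and their largest differences involved the Rsv group. Their medians in Th17 minus Th0 (0.06) and Eze minus Th17 (-0.13) had the same sign as those of alpha and beta. Of the 10 gamma rows 7 were called higher in Rsv than in Th17 and 0 lower, with a median of 1.35, where 14% of all main rows were higher and 12.3% lower. In Eze against Th17, 1 of 10 was called lower (Tcrg-V5, below background in all groups), near the 10.8% of all main rows. Between the single unnumbered arrays the Rsv minus Th17 median was 1.26, and in the numbered arrays it was 1.29.

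All gamma constant rows were brightest in Rsv. Tcrg-C2 (chromosome 13, 19305060 to 19307551, minus strand) read 6.17, 6.42, 6.33 and 6.11 in Eze, 9.79, 9.72, 9.70 and 9.44 in Rsv, 6.49, 6.55, 6.67 and 6.12 in Th17, and 5.99, 6.03, 5.77 and 5.96 in Th0. Every Rsv array was above every array of the other groups, and none of those rose above its background threshold. Against that threshold Tcrg-C2 was at least 7.52-fold higher in Rsv than in Th17, with a measured log2 difference of 3.20 (SE 0.12, adjusted p = 1.2e-12). Its place among all main rows was the 98.5th to 98.8th percentile in Rsv and the 77.4th to 83.5th in Th17.

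Tcrg-C1 (chromosome 13, 19214103 to 19216618, plus strand) read 5.72, 5.57, 5.41 and 5.56 in Eze, 8.61, 8.86, 9.01 and 7.99 in Rsv, 5.55, 5.64, 5.73 and 5.57 in Th17, and 4.32, 4.50, 4.73 and 4.48 in Th0. It was at least 3.65-fold higher in Rsv than in Th17 (measured log2 difference 3.00, SE 0.16, adjusted p = 1.56e-10). Its Th17 arrays were also above its Th0 arrays (adjusted p = 5.29e-05), both below background, as were those of Tcrg-C2 (adjusted p = 0.0038), so no fold is given. Tcrg-C3 averaged 6.28 in Rsv and 3.44 in Th17 (adjusted p = 9.37e-09), with 1 Rsv array above background. The gamma constant regions are close copies, and all 3 rows have a crosshyb_type of 3, so the share of each gene cannot be told apart from these rows.

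Among gamma V segments the rise was smaller and not shared by all. Tcrg-V1, the only gamma row above background in every group, read 6.71, 6.73, 6.89 and 6.78 in Eze, 7.83, 7.76, 7.75 and 8.04 in Rsv, 7.11, 6.96, 6.75 and 6.91 in Th17, and 7.07, 7.18, 7.10 and 7.04 in Th0. Its Rsv arrays stood above all others, 1.88-fold above Th17 (0.91, SE 0.09, adjusted p = 4.44e-07). Trgv2 read 7.39, 7.59, 7.19 and 7.84 in Rsv and 5.43, 5.39, 6.12 and 5.89 in Th17, at least 1.68-fold higher (adjusted p = 1.15e-06).

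Other gamma V rows stayed below background on average in all groups. Of these, Tcrg-V4, whose probes are unique, averaged 3.55 in Eze, 5.53 in Rsv, 3.61 in Th17 and 3.37 in Th0, and passed the test for Rsv against Th17 (adjusted p = 7.48e-08). Tcrg-V3 averaged 5.50, 6.28, 5.50 and 5.60 in the same groups (adjusted p = 1.71e-05). Tcrg-V5, Tcrg-V6 and Tcrg-V7, all with unique probes, averaged between 1.95 and 3.42 over the groups and gave -0.11, 0.19 and 0.09 in Rsv minus Th17 (adjusted p = 0.463, 0.203 and 0.694).

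The delta chain showed no such rise at this signal. Trdv1, Trdv2-1, Trdv2-2 and Trdv5 were below background in all groups, with means between 4.05 and 5.93. None of the 4 was called in Rsv against Th17, where the differences were -0.18, 0.07, 0.31 and 0.12 (limma adjusted p = 0.293, 0.707, 0.0801 and 0.506). No main row lies at the delta constant region. Rows outside the chosen symbols, under the name A630038E17Rik, lie at Trdv4, Trdj1 and Trdj2 and were below background, with 0.42 at Trdj1 and 0.15 at Trdj2 in Rsv minus Th17 (limma adjusted p = 0.195 and 0.415). A row of the same name lies at Trav15-1-dv6-1, a V segment that can join either chain, and was called higher in Rsv (means 5.92 in Rsv and 5.10 in Th17, adjusted p = 0.000777), both below background. Of 10 Trav rows shared with delta by their symbols, 1 was higher and 1 lower in Rsv than in Th17. Over all main rows 14% were higher and 12.3% lower. The median of the 10 was -0.02, against -0.19 for the 89 other Trav rows. By position the sets differ. The 10 include rows at Trav15n-1 and Trav15n-2, and the 89 include a row named Trav13d-4 that lies at Trav13-4-dv7.

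**Figure D4:**
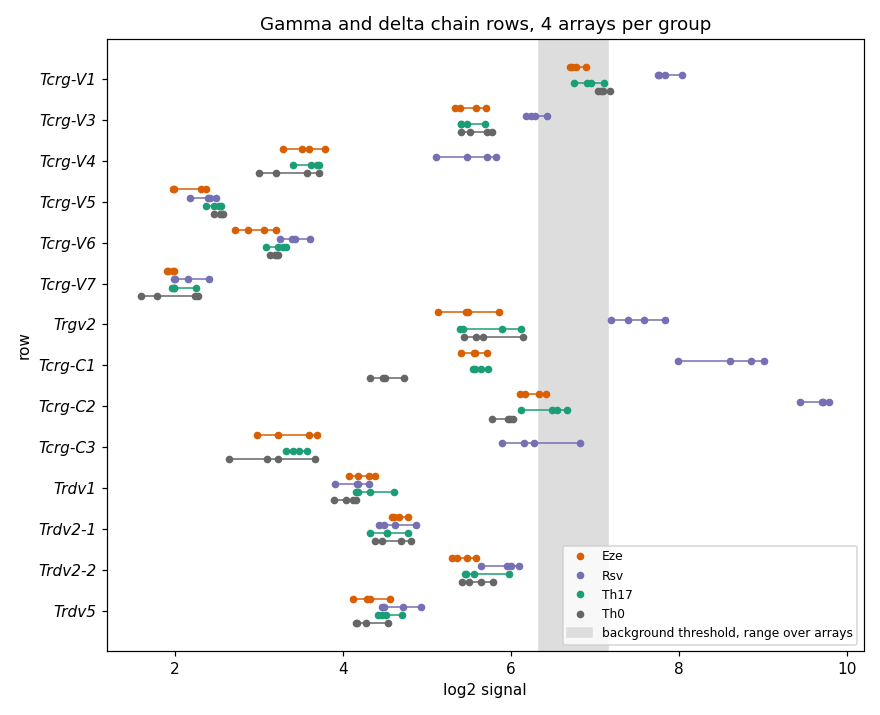
Log2 signal of the 10 gamma and 4 delta rows (points, 1 per array; lines, range over the 4 arrays of a group; colours, Eze, Rsv, Th17 and Th0 from top to bottom within a row; grey band, range of the background threshold over arrays, 6.34 to 7.16). The Rsv points of Tcrg-C1, Tcrg-C2, Tcrg-V1 and Trgv2 lie to the right of the band and of all other groups, and every delta row lies left of it.

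Set against each other, the drug groups differed in both kinds of chain. Of 196 alpha and beta rows 103 were lower and 1 higher in Eze than in Rsv, with a median of -0.32, where 15.9% of all main rows were lower, 12.8% higher, and the median was -0.08. With arrays centred on their medians, which moved the median of all rows to 0.09, 63 of the 210 rows were lower and 7 higher in place of 112 and 1. The row called higher as deposited was Trav8n-2, named after its values were seen, with means of 4.06 in Eze and 3.07 in Rsv, both below background. Of the 10 gamma rows 8 were lower in Eze, with Tcrg-C2 at least 8.61-fold and Tcrg-C1 at least 4.18-fold lower (adjusted p = 1.05e-12 and 2.19e-10). Of the delta rows Trdv2-2 was lower (means 5.43 and 5.93, adjusted p = 0.00727), both below background.

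A larger share of beta than of alpha rows was called between the drugs, a difference that was not tested. Lower in Eze than in Rsv were 30 of 39 beta rows, with a median of -0.44, and 73 of 157 alpha rows, with a median of -0.29. The calls also differed by signal, with 81 of the 96 brighter alpha and beta rows lower and 22 of the 100 dimmer rows. Beta rows were brighter than alpha rows, with array medians in Eze of 7.35 to 7.43 against 6.16 to 6.36. The part of signal level in the difference between chains was not tested. Trbv19 was 1.77-fold lower in Eze (-0.82, SE 0.09, adjusted p = 2.63e-06). Trbv13-2 read 7.92, 7.99, 7.94 and 7.64 in Eze and 8.54, 8.92, 8.80 and 8.46 in Rsv, a difference of -0.81 (adjusted p = 2.78e-05). Trac and Trbc2 fell by 0.39 and 0.60 (adjusted p = 0.000224 and 4.9e-06), while Trbv26, Traj53 and Traj42 gave 0.02, -0.06 and -0.08 (adjusted p = 0.92, 0.781 and 0.725).

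**Figure D5:**
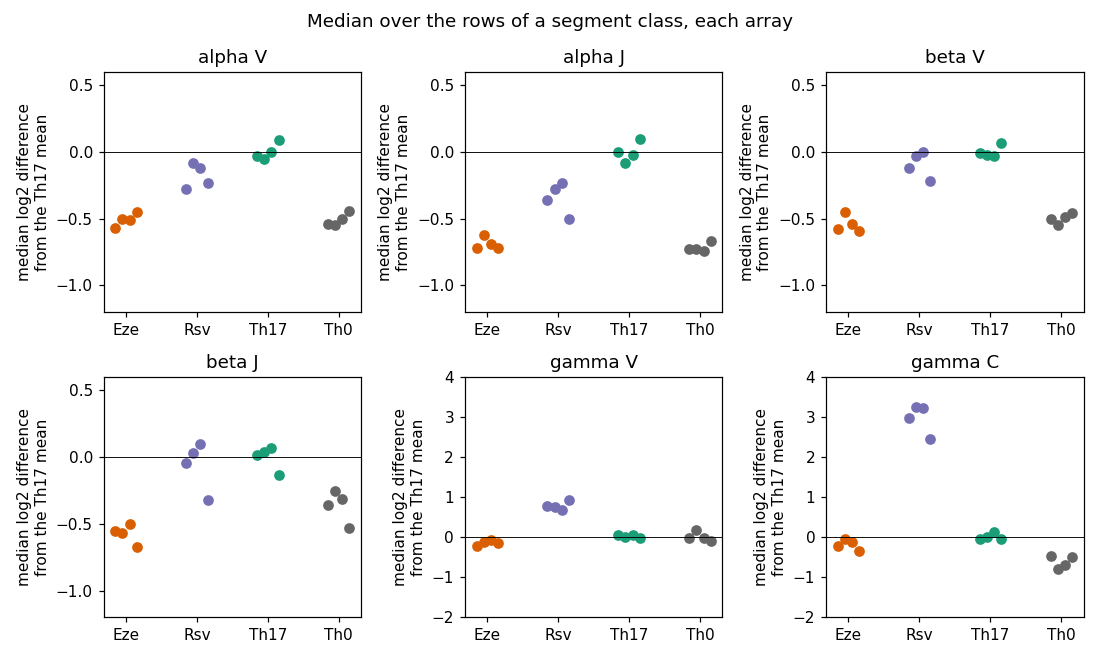
Median over the rows of a segment class of the log2 difference from the Th17 mean, for each array (points) in Eze, Rsv, Th17 and Th0; the gamma panels have a wider axis than the others. Alpha J medians lie between -0.72 and -0.62 in Eze, -0.50 and -0.23 in Rsv, -0.08 and 0.10 in Th17, and -0.74 and -0.67 in Th0, while gamma C medians lie between 2.45 and 3.26 in Rsv.

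Partners of the receptor at the cell surface moved in part with the alpha and beta segments. Among 12 genes of the CD3 complex and coreceptors, Th17 against Th0 gave 6 higher and 1 lower (8.22% and 6.94% over all main rows). Eze against Th17 gave 1 higher and 7 lower (10.7% and 10.8%), and Rsv against Th17 gave 3 higher and 5 lower (14% and 12.3%). Cd3g, a signalling chain of the complex, averaged 9.02 in Eze, 9.53 in Rsv, 9.92 in Th17 and 9.32 in Th0. Cd3e, another chain, averaged 10.38, 10.97, 10.96 and 10.28 in the same groups. Trat1, a transmembrane adaptor that associates with the receptor, ran opposite to them. Its means were 7.86 in Eze, 6.66 in Rsv, 5.44 in Th17 and 8.83 in Th0, and no Th17 array was above background, so it was at least 2.16-fold higher in Eze than in Th17 and at least 4.22-fold lower in Th17 than in Th0 (adjusted p = 3.94e-12 and 3.09e-14).

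Genes of V(D)J recombination and of the receptor enhancers were also read. Among 12 recombination genes, 5 were higher in Th17 (against Th0), where 8.22% of all main rows were, Eze against Th17 gave 5 higher and 1 lower (10.7% and 10.8%), and Rsv against Th17 gave 3 higher and 2 lower (14% and 12.3%). Below background in every group were 7 of the 12, Dclre1c, Xrcc4, Lig4, Nhej1, Rag1, Rag2 and Dntt, and 3 of the 5 higher in Th17 (Dntt, Xrcc4 and Nhej1) were among them. Rag1 and Rag2, which encode the recombinase, were at or below 3.11 in every group mean, below background. Those higher with ezetimibe encode DNA end-joining proteins (Prkdc, Xrcc5 and Xrcc6) and chromatin proteins (Hmgb1 and Hmgb2). Dntt, the polymerase that adds bases at junctions, averaged 4.51 in Eze, 3.45 in Rsv, 6.33 in Th17 and 5.67 in Th0, below background in all of them.

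A list of 13 genes covered factors that act on receptor enhancers or on early T cell fate. Th17 against Th0 gave 6 higher and 1 lower of these (8.22% and 6.94% over all main rows). Eze against Th17 gave 1 higher and 6 lower (10.7% and 10.8%), and Rsv against Th17 gave 1 higher and 4 lower (14% and 12.3%). Ets1, a factor that binds the alpha and beta enhancers, averaged 8.58 in Eze, 8.95 in Rsv, 9.19 in Th17 and 8.39 in Th0. It was called in all 3 comparisons, at -0.61 in Eze minus Th17, -0.24 in Rsv minus Th17 and 0.79 in Th17 minus Th0. Gata3 was the gene called lower in Th17 than in Th0 (limma adjusted p = 1.02e-12). Its means were 5.49 in Th17, below background, and 7.85 in Th0. Runx3, Tcf12 and Creb1 were not called in Th17 against Th0 (0.01, 0.08 and 0.15). Tcf7, which encodes TCF-1, was lower in Eze than in Th17 by 0.69 but higher in Rsv than in Th17, at 0.54 (adjusted p = 2.52e-05).

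Markers of cell types also differed between groups. In bulk RNA, another mix of cells and another RNA level per cell cannot be told apart. Of 10 T cell markers 9 were above background in every group, with Cd247 the exception. In Eze against Th17, 2 were higher and 6 lower (median -0.30), where 10.7% and 10.8% of all main rows were. In Rsv against Th17, 1 was higher and 4 lower (-0.12), where 14% and 12.3% were. In Th17 against Th0, 5 were higher and 1 lower (0.25), where 8.22% and 6.94% were. The summed log2 level of the 10 T cell markers was 12.65 to 12.75 in Eze, 12.83 to 12.93 in Rsv, 12.93 to 12.98 in Th17 and 12.69 to 12.72 in Th0. Cd4, the gene of the labelled type, averaged 10.16 in Eze, 10.11 in Rsv, 10.56 in Th17 and 10.22 in Th0. Summed over the 12 B cell markers, the log2 level was 10.40 to 10.44 in Eze, 9.70 to 9.92 in Rsv, 10.13 to 10.23 in Th17 and 11.36 to 11.43 in Th0, and 11 of the 12 were lower in Th17 than in Th0. Ms4a1, Cd22, Fcer2a, Cr2, Pax5 and Blnk were below background in every group, while Cd79a averaged 8.10 in Th0 and was below background in the other groups. In Eze against Th17, 10 of the 12 were higher and 1 was lower. In Rsv against Th17, 6 were higher and 1 was lower with a median of 0.31, opposite to the sum, and the lower gene was H2-Ab1, an MHC class II chain, with means of 7.62 in Rsv and 9.32 in Th17. The part of these markers in the alpha and beta differences was not tested.

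Markers beside the gamma rows moved in Rsv as well. Cd8a read 5.85, 5.75, 5.72 and 6.00 in Eze, 7.27, 7.49, 7.51 and 7.07 in Rsv, 6.21, 6.06, 6.04 and 6.01 in Th17, and 5.30, 4.83, 5.29 and 5.25 in Th0. It was above background in Rsv alone by its means, and Cd8b1 was 0.71 higher in Rsv than in Th17 (adjusted p = 7.81e-06). All 5 gamma-delta markers that are no receptor rows (Sox13, Blk, Cd163l1, 5830411N06Rik and Zbtb16) were below background in every group, and their summed log2 level was 6.74 to 6.88 in Eze, 6.85 to 7.06 in Rsv, 6.56 to 6.83 in Th17 and 6.89 to 7.11 in Th0. In Rsv against Th17, 1 of the 5 was called higher and 0 lower. The called gene was Cd163l1, with means of 4.39 in Rsv and 3.95 in Th17 (limma adjusted p = 0.0152). Over all main rows, 14% were called higher and 12.3% lower in Rsv against Th17. Of 7 natural killer markers measured, 4 were higher and 0 lower in Rsv, with sums of 9.17 to 9.64 in Rsv and 9.45 to 9.55 in Th17. Ncr1, Klrb1c, Klrk1 and Eomes were below background in all groups. Of 10 myeloid markers 7 were higher and 1 lower in Rsv than in Th17, with sums of 8.21 to 8.46 in Rsv and 8.57 to 8.74 in Th17, and all but Cd68 below background in all groups. The part of any of these in the gamma differences was not tested.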

How the data were processed

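RNA was hybridised to 16 mouse gene arrays (MoGene-2_0-st). The authors deposited log2 signals, which the methods describe as preprocessed by a "range migration algorithm" and quantile normalized. The methods name RNA sequencing, but the files hold arrays. A copy of the values as a series matrix was identical and not used. Limma 3.58.1 in R 4.3.3 fitted 1 mean per group to all 33793 main rows of the 16 arrays without covariates, and p-values were adjusted over all of these rows. The number of arrays limits the precision (median SE of a log2 fold change 0.12). The fit was tested on simulated data.

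Named rows were every constant row, the gamma or delta rows above background, the 6 brightest rows, and, per comparison and direction, up to 6 called rows with the largest change whose groups did not overlap and whose higher mean was above background. A group under background on all arrays gave only a bound, which sets each of its arrays at the higher of its threshold and its value. Segments were placed by position in RefSeq (GRCm38.p6), while the chain and sharing with delta were read from the symbol. The members, gene lists and tests were chosen with earlier results of these data known. Alternatives covered scaling, normalization, filters, tests and single arrays.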

Additional observations from a re-analysis of the deposited data

Results flagged for a closer look

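Of 108 pairs of a named row and a group, 3 had an array set apart from the other 3 by more than Dixon's critical value, where chance gives about 1 in 20. Trav7-2 was low in Th0 replicate 2, at 7.27 against 7.57 to 7.62 (gap over range 0.859), and Traj56 was low in the same array, at 5.85 against 6.13 to 6.18 (0.857). Trbv19 was high in Th0 replicate 3, at 8.28 against 7.94 to 7.99 (0.857).

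Gamma chain J rows fall outside the symbols chosen and were higher in Rsv than in Th17. Their Th17 arrays were all below background, so the differences as measured, 3.63 for Trgj1, 3.54 for Trgj2, 2.84 for Trgj3 and 3.32 for Trgj4, are no exact folds. Trgj2 (means 8.76 in Rsv and 5.22 in Th17) was at least 4.04-fold higher in Rsv. The row named Trgj4, whose probes are unique and which also spans Trgc4, read 9.31, 9.50, 9.26 and 9.25 in Rsv and 6.05, 6.01, 6.05 and 5.96 in Th17, at least 5.98-fold higher (limma adjusted p = 1.38e-12). Trgj1 (6.51 in Rsv and 2.88 in Th17) gave no bound above 1, and Trgj3 (5.37 in Rsv and 2.53 in Th17) was below background in both groups.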

How the results depend on the processing

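Counts are of the 210 rows. As deposited, the counts of higher and lower rows were 144 and 0 for Th17 against Th0, 0 and 152 for Eze against Th17, 15 and 63 for Rsv against Th17, and 1 and 112 for Eze against Rsv. With the 105 rows of unique probes alone, 71 were higher in Th17 than in Th0, 76 lower in Eze than in Th17, 4 higher and 38 lower in Rsv than in Th17, and 54 lower in Eze than in Rsv; fewer rows were tested. Higher in Eze than in Th17 was 1 row with centred arrays, with a repeated quantile normalization and with array weights. Lower in Rsv than in Th17 were 37 with the numbered arrays alone. Higher in Eze than in Rsv were 7 with centred arrays, 2 with quantile normalization, 3 with array weights, 0 above background, 2 with these groups alone and 3 by the exact Mann-Whitney test, and 63 were lower with centred arrays. The causes were not tested.

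Leaving out single arrays gave 130 to 137 higher and 0 lower for Th17 against Th0, 0 to 1 higher and 137 to 146 lower for Eze against Th17, 13 to 17 higher and 46 to 65 lower for Rsv against Th17, and 1 to 2 higher and 94 to 119 lower for Eze against Rsv. The replicate number did not pair the arrays (correlations of deviations -0.121 to 0.106 for the same number, -0.119 to 0.162 for arrays with none and -0.204 to 0.241 for different numbers), and as a replicate block it gave 146 and 0, 0 and 151, 16 and 66, and 1 and 115 rows in the 4 comparisons. The date in the array names as a block, chosen after seeing the data, gave 148 and 0, 0 and 153, 16 and 67, and 1 and 118.

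For single rows 1999 values kept direction and call, 51 lost the call, 25 gained it and 25 turned sign, all of these small and not called. With centred arrays these were Tcrg-C1 in Eze minus Th17 (0.02), Trbv13-2 in Rsv minus Th17 (-0.05), and Trav7-2, Traj56, Traj53 and Traj42 in Eze minus Rsv (0.10, 0.01, 0.10 and 0.09). With quantile normalization they were Trac, Trbj1-1 and the Tcrb-J rows at Trbj1-2 and Trbj1-6 in Rsv minus Th17 (0.05, 0.17, 0.12 and 0.07) and Trbv26 in Eze minus Rsv (-0.06). With numbered arrays they were Tcrg-C3 in Eze minus Th17 (0.07), Trbj1-1 in Rsv minus Th17 (0.03) and Trbv26 in Eze minus Rsv (-0.11, and -0.04 with array weights).

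Leaving out single arrays turned the sign of Tcrg-C3 in Eze minus Th17 (-0.18 to 0.06), of Trbv13-2 and Trbj1-1 in Rsv minus Th17 (-0.04 to 0.11 and -0.08 to 0.04), and of Trav7-2, Traj53, Traj42 and Trbv26 in Eze minus Rsv (-0.19 to 0.04, -0.16 to 0.10, -0.21 to 0.01 and -0.09 to 0.16).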
